A study of Homo sapiens with 12 samples.

Results

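The proteasome genes described here are the 48 rows of the count table whose symbol begins with PSM, followed by a letter from A to G and a number, out of 53717 rows in all. Of these 48, 46 passed the filter on low counts and were tested among 17264 genes, and PSMA8 and PSMB11 did not pass. The set holds 8 PSMA genes, 11 PSMB genes, 6 PSMC genes, 14 PSMD genes, 4 PSME genes, PSMF1 and 4 PSMG genes. Symbols alone decided which rows entered, but the family was chosen with earlier results of these data known.

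The 26S proteasome is the machine that degrades proteins marked with ubiquitin. Its 20S core is a stack of rings, with alpha subunits (PSMA) on the outside and beta subunits (PSMB) on the inside, and the beta subunits PSMB5, PSMB6 and PSMB7 cut the substrate. A 19S regulatory particle caps the core. Its base unfolds substrates with a ring of ATPases (PSMC) and carries scaffold and ubiquitin-receptor subunits, and its lid removes ubiquitin (both PSMD). Activators (PSME), an inhibitor (PSMF1) and dedicated assembly chaperones (PSMG for the core, PSMD5, PSMD9 and PSMD10 for the base) complete the set. When proteasome activity falls, the transcription factor NFE2L1 raises subunit genes together through antioxidant response elements. Embryonic stem cells are known for high proteasome activity, which has been tied to their proteome quality control.

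RNA came from H9, an established human embryonic stem cell line, grown in RSeT medium, a medium marketed for naive human stem cells. All 3 groups received a fluorescein-labelled oligonucleotide at 25 nM by lipofection. The oligo of ASO-L1 is antisense to LINE1, a retrotransposon family, that of sO-L1 is its sense counterpart, and that of ASO-Ctr is a non-targeting antisense control. Every group was also given 0.7 uM trans-ISRIB, which counters the integrated stress response, 5 uM of the caspase inhibitor emricasan and 10 uM of the ROCK inhibitor Y-27632, all removed after 24 h. Fluorescent cells were sorted at 48 h, 80 to 130 ng of RNA entered each poly(A) library, and each group had 4 libraries. The labels do not say that replicates were separate cultures, so p-values measure only the spread between these samples, which may be technical. Reads of LINE1 were not analysed here.

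Library totals ran from 22.8 to 55.1 M counts, and proteasome genes took 0.635 to 0.705% of them. Levels are in CPM, which are counts put on a common library size with TMM factors, and means carry the SD of the 4 libraries of a group. All 9 of 9 embryonic stem cell markers were above 1 CPM in every library, with a summed level of 8486 to 9003 CPM. Summed markers of blood and lymphoid cells (5 genes), which are rich in inducible proteasome subunits, were at 0.676 to 1.78 CPM, and none of these genes passed 1 CPM in every library. Fibroblast markers (7 genes) summed to 103 to 142 CPM, carried by COL1A1, COL1A2 and THY1, with LUM at 0 and COL3A1 and DCN near 0. Trophectoderm markers (7 genes, CDX2 and VGLL1 at 0) summed to 1.64 to 3.42 CPM in ASO-Ctr, 1.44 to 3.21 in sO-L1 and 2.98 to 4.11 in ASO-L1. Primitive endoderm markers (5 genes) summed to 0.556 to 2.46, 0.487 to 2.88 and 1.89 to 3.77 CPM in the same order. Their part in the results was not tested.

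One library was set apart here, though control libraries also lay away from the rest of their groups. Averaged over the 7 constitutive PSMB genes, log2 CPM was 7.23 in ASO-L1 replicate 1 (others of the group 7.33 to 7.38). It was 7.14 in ASO-Ctr replicate 2 (others 7.23 to 7.30) and 7.42 in sO-L1 replicate 1 (others 7.22 to 7.30). ASO-L1 replicate 1 had the lowest level of its group in PSMA4, PSMD5, PSME1, PSMB1 and PSMD1 and the highest in PSMG3 and PSMG4, and the median difference of the constitutive PSMB genes from ASO-Ctr was -0.05 (log2) in replicate 1 against 0.11 to 0.20 in the other replicates. Counts of genes called are therefore given with and without that library. It was set apart by values of these same genes, so counts without it are no separate evidence. In the fit without it, 21.2% of all tested genes were called higher and 22% lower against ASO-Ctr. Against sO-L1 these shares were 20.5% and 22.1%.

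Proteasome genes differed between ASO-L1 and the controls by small amounts and in both directions. Against ASO-Ctr, 15 of 46 tested proteasome genes rose in ASO-L1, 4 fell and 27 did not pass (edgeR's quasi-likelihood test, Benjamini-Hochberg adjusted p under 0.05). That is 41.3% of the 46, where 44.3% of all tested genes were called, 21.2% higher and 23.1% lower. Their median log2 fold change was 0.08, against -0.003 over all tested genes. The number that rose was 23 without ASO-L1 replicate 1, where 21.2% of all genes tested were called higher. Without ASO-Ctr replicate 2, ASO-L1 replicate 2 or ASO-L1 replicate 3 it was 8, beside 17.1%, 17.9% and 17.9% of all genes. Leaving out all libraries of replicate 1, 2 or 3 gave 23, 7 and 8, beside 21.5%, 16.3% and 15.9% of all genes. In every fit that left out libraries 3 to 4 fell, beside 17.5 to 23.5% of all genes called lower. Since RNA was measured in bulk, fewer cells of a type and less RNA per cell cannot be told apart.

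Against sO-L1, 9 of the 46 rose in ASO-L1, 7 fell and 30 did not pass. The share called was 34.8%, and over all tested genes it was 44%, with 21.1% higher and 22.9% lower. The number that rose was 16 without ASO-L1 replicate 1, beside 20.5% of all genes tested called higher. It was 5 without sO-L1 replicate 2 or ASO-L1 replicate 2 and 4 without ASO-L1 replicate 3, beside 17.2%, 17.5% and 17.7%. Leaving out all libraries of replicate 1, 2 or 3 gave 18, 5 and 3, beside 21.2%, 16.3% and 16% of all genes. In the last of these 4 fell, beside 17.6% of all genes called lower. Without the replicate block in the model 4 rose, beside 16.3% of all genes. The comparisons share the 4 ASO-L1 libraries, so they are not independent of each other. Of the called genes, 7 rose in both and 4 fell in both, which are PSMA4, PSMD1, PSMD5 and PSME1.

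Between the control oligos, 0 of 46 proteasome genes passed in edgeR, by DESeq2 or by limma on the authors' log2 values, where 0.29% of all tested genes were called in edgeR. At an unadjusted p under 0.05, PSMC2 and PSMD14 were higher and PSMA6 lower in sO-L1. The median log2 difference of the 46 was 0.05, with 37 of 46 above 0. Without ASO-L1 replicate 1, a library outside this comparison that enters its fit through the shared spread and the replicate block, 1 proteasome gene passed in edgeR. It was PSMC2, named here after its values were seen, at a log2 difference of 0.13 there and 0.12 with all 12 libraries. In that fit 2.34% of all tested genes were called, so 1 of 46 is near the share over all genes. The summed level of the 48 genes was 6579 ± 240 CPM in ASO-Ctr, 6809 ± 251 in sO-L1 and 6830 ± 278 in ASO-L1 (SD, n = 4). Within replicate numbers, the sum was higher than in ASO-Ctr in 4 of 4 pairs for ASO-L1 (by 11.9 to 403 CPM) and in 4 of 4 for sO-L1 (by 43.9 to 547 CPM). ASO-L1 was above sO-L1 in 3 of 4. No test was made of the sum.

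**Figure D1:**
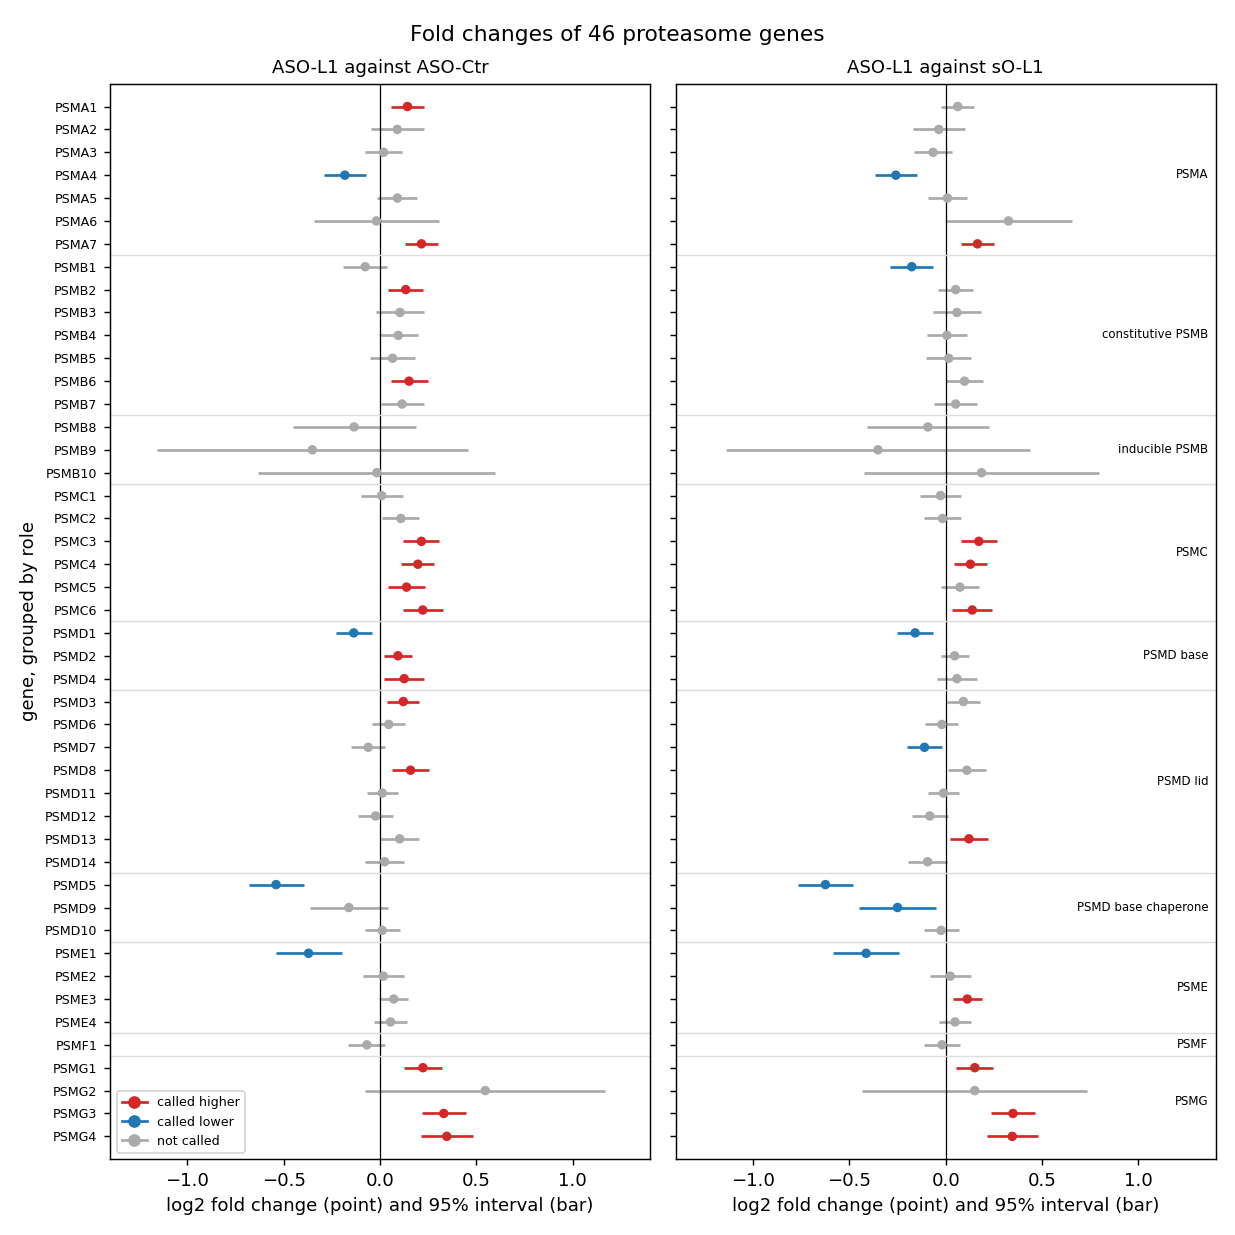
Log2 fold change (point) with its 95% interval (bar) of each of the 46 tested proteasome genes, grouped by role, for ASO-L1 against ASO-Ctr (left) and against sO-L1 (right). Red points were called higher and blue points lower (15 and 4 on the left, 9 and 7 on the right), and the points farthest from 0 are PSMD5 at -0.54 and -0.62 and PSMG2 on the left at 0.55, which did not pass.

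Promoters are shown for genes that moved, because proteasome genes share response elements. The core of the antioxidant response element, TGACNNNGC, was searched on both strands in windows from 250 bases upstream to 50 bases downstream of each RefSeq start (GRCh38.p14). It occurred in 13.3% of 35116 windows. It lay in 15 of the 51 windows of proteasome genes, or 29.4%, which belong to 15 of the 42 genes with a window (PSMA7, PSMB1, PSMB6, PSMB7, PSMD4 and PSMG3 had no window). Counted by gene, among those called against ASO-Ctr it lay in all 4 that fell and in 4 of 11 that rose, against 7 of 25 that did not pass. Over the 42 genes the share was 35.7%. A gene can have several windows, and no share by gene was taken over all genes. The difference between these groups was not tested. A match is a description of letters and not a bound site. The stretches of the genes that fell are printed first and then those that rose, 5′ to 3′ on the strand of the match, with the 9 matching bases in capitals.
PSMD5 (chr9:120843038-120843066, minus strand): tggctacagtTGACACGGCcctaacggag
PSME1 (chr14:24136098-24136126, plus strand): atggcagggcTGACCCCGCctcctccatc
PSMA4 (chr15:78540650-78540678, plus strand): gtgggcacgaTGACTCTGCaccgcctcct
PSMD1 (chr2:231056896-231056916, plus strand): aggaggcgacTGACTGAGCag
PSMC4 (chr19:39971182-39971210, minus strand): tcctccatagTGACCAAGCcggcctctgt
PSMC5 (chr17:63827654-63827682, minus strand): agggcggcgcTGACACAGCagatccggtc
PSMD3 (chr17:39980760-39980788, plus strand): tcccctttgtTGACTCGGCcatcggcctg
PSMG1 (chr21:39183616-39183644, minus strand): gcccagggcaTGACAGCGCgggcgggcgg
The match began 134 bases upstream of the start in PSMD5, 86 in PSME1, 126 in PSMA4, 57 in PSMC5, 37 in PSMD3 and 183 in PSMG1, and lay inside the transcript in PSMD1 and PSMC4, 40 and 28 bases from its start. In the GENCODE v29 annotation the PSMA4 and PSMG1 stretches lie in exons of other transcripts of the same gene, and those of PSME1 and PSMD3 in no exon. The PSMD5 stretch overlaps an exon of the transcribed pseudogene CUTALP, and the PSMC5 stretch exons of FTSJ3 and of another PSMC5 transcript. A second match in the PSMD3 window is not printed. The CCAAT box, CCAAT, lay in 20 of the 51 windows of proteasome genes (39.2%) and in 34.6% of all windows. The composite element bound by ATF4 and C/EBP factors, TGATGNAA, lay in 1 of the 51 windows, that of PSMF1, and in 3.6% of all windows.

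The outer ring of the core is made of PSMA genes. Of 7 tested, PSMA1 and PSMA7 rose against ASO-Ctr, PSMA4 fell and 4 did not pass, at a median log2 fold change of 0.09. Over all tested genes, 21.2% were called higher and 23.1% lower. PSMA7, the alpha4 subunit, was at 225, 201, 217 and 226 CPM in ASO-Ctr, 240.4, 213, 224 and 221 in sO-L1 and 249, 246, 253 and 258 in ASO-L1 (replicates 1 to 4 in each group). All ASO-L1 libraries were above all others. PSMA7 was 1.16-fold higher than in ASO-Ctr (95% interval 1.09 to 1.23, adjusted p = 0.000457 by edgeR) and 1.12-fold higher than in sO-L1 (adjusted p = 0.00358). PSMA4, the alpha3 subunit whose tail gates the pore of the core, was at 306, 295, 315 and 328 CPM in ASO-Ctr, 345, 303, 323 and 339.8 in sO-L1 and 241, 269, 292 and 296 in ASO-L1. It was lower in ASO-L1 than in ASO-Ctr in each of 4 replicate numbers, though the groups overlapped, and below every sO-L1 library. PSMA4 fell by 0.18 on the log2 scale (SE 0.051, adjusted p = 0.0078 by edgeR) against ASO-Ctr and by 0.26 (SE 0.051, adjusted p = 0.000586) against sO-L1. PSMA1, another ring subunit, was at 169, 170.4, 175 and 184 CPM in ASO-Ctr, 187, 174, 189 and 188 in sO-L1 and 194, 190.4, 193 and 193 in ASO-L1. ASO-L1 libraries lay above both control groups, by 0.14 on the log2 scale against ASO-Ctr (SE 0.040, adjusted p = 0.00851 by edgeR), while 0.06 against sO-L1 did not pass (adjusted p = 0.218). Without replicate 2 or without replicate 3 of all groups, PSMA1 did not pass against ASO-Ctr.

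PSMA2, PSMA3 and PSMA5 had log2 fold changes of 0.09, 0.02 and 0.09 against ASO-Ctr and did not pass. Without ASO-L1 replicate 1, PSMA5 passed (adjusted p = 0.00128 by edgeR), so 3 of 7 PSMA genes rose and 1 fell, beside 21.2% and 22% of all tested genes. PSMA6 was counted at 3.37 CPM in ASO-Ctr, 2.56 in sO-L1 and 3.24 in ASO-L1. In the GENCODE v29 annotation (a later build than the files' hg19), 70.4% of the coding bases of PSMA6 also belong to another gene on the same strand, and the same holds for 100% of PSMA2, 88.6% of PSMA1, 68.3% of PSMD9 and 60.0% of PSMB10. Counting can leave such reads unassigned, so the levels of these 5 genes are uncertain, and the share of reads lost in this way was not tested. On the opposite strand, 47.7% of PSMC1 lies in NRDE2 and 30.0% of PSMD7 in another gene. PSMA8, the alpha subunit of germ cells, had 67 reads over 12 libraries.

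In the inner ring, PSMB2 and PSMB6 rose against ASO-Ctr among 7 constitutive PSMB genes and 5 did not pass, at a median of 0.10. Against sO-L1, PSMB1 fell and 6 did not pass, at a median of 0.05. That is 28.6% and 14.3% of these 7 genes, beside 44.3% and 44% of all tested genes called in either direction. PSMB6, the subunit with caspase-like activity, was at 115, 106, 114 and 117 CPM in ASO-Ctr, 124, 112, 118 and 115 in sO-L1 and 119.9, 122, 128 and 131 in ASO-L1. ASO-L1 was above every ASO-Ctr library, at 1.11-fold (95% interval 1.04 to 1.19, adjusted p = 0.0126 by edgeR), and overlapped sO-L1 at 1.07-fold (adjusted p = 0.0895). PSMB5, with chymotrypsin-like activity and the main target of proteasome inhibitors, was at 130.5, 113, 125 and 123 CPM in ASO-Ctr, 140.5, 120.1, 124 and 124 in sO-L1 and 119.8, 131, 128 and 133 in ASO-L1. Its groups overlapped, and the log2 difference of 0.06 against ASO-Ctr did not pass (95% interval of the fold 0.965 to 1.13, adjusted p = 0.362 by edgeR). PSMB7, with trypsin-like activity, was at 178, 157, 167 and 179 CPM in ASO-Ctr, 198, 169.6, 168 and 176 in sO-L1 and 172, 180.4, 188 and 195 in ASO-L1. It overlapped likewise, at 0.11 on the log2 scale (adjusted p = 0.0894 by edgeR). PSMB6 did not pass against ASO-Ctr without ASO-Ctr replicate 2 or without ASO-L1 replicate 2, 3 or 4, nor without replicate 2 or 3 of all groups (highest adjusted p = 0.0989 by edgeR). Without ASO-L1 replicate 1, PSMB3, PSMB4, PSMB5 and PSMB7 passed as well (adjusted p = 0.004 for PSMB5 and 9.75e-05 for PSMB7 by edgeR). In that fit 6 of 7 constitutive PSMB genes rose against ASO-Ctr, beside 21.2% of all tested genes. That library was set apart partly for its low PSMB values, so a larger count without it follows from the choice. Against sO-L1 without that library, PSMB3, PSMB6 and PSMB7 rose and PSMB1 fell.

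PSMB2 was at 154, 146, 151 and 159 CPM in ASO-Ctr, 169, 149.6, 161 and 166 in sO-L1 and 169, 169, 168 and 163 in ASO-L1. ASO-L1 lay above ASO-Ctr in every library and overlapped sO-L1, with a log2 fold change against ASO-Ctr of 0.13 (SE 0.044, adjusted p = 0.0197 by edgeR). It did not pass in 7 of the 16 fits on fewer libraries, or without the replicate block (adjusted p = 0.051). PSMB1 was at 213, 200.0, 213 and 225 CPM in ASO-Ctr, 245, 209, 228 and 228 in sO-L1 and 182, 207, 202 and 214 in ASO-L1. Its ASO-L1 libraries overlapped both control groups and were lower than sO-L1 in each of 4 replicate numbers, at -0.18 on the log2 scale (SE 0.053, adjusted p = 0.0129 by edgeR), a call lost without sO-L1 replicate 1 or without replicate 3 of all groups. PSMB3 and PSMB4 had log2 fold changes of 0.10 and 0.09 against ASO-Ctr and did not pass with all libraries, and had adjusted p = 0.000459 and 0.000596 by edgeR without ASO-L1 replicate 1.

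The inducible subunits PSMB8, PSMB9 and PSMB10 replace PSMB5, PSMB6 and PSMB7 in cells exposed to interferon and in lymphoid cells. PSMB8 was at 3.47, 3.37, 2.99 and 2.96 CPM in ASO-Ctr, 3.90, 3.29, 3.09 and 2.16 in sO-L1 and 2.60, 3.35, 2.51 and 3.07 in ASO-L1. PSMB9 was at 0.514, 0.334, 0.378 and 0.464 CPM in ASO-Ctr, 0.573, 0.587, 0.294 and 0.196 in sO-L1 and 0.216, 0.412, 0.275 and 0.377 in ASO-L1. PSMB10 was at 0.728, 0.406, 0.630 and 0.522 CPM in ASO-Ctr, 0.516, 0.570, 0.353 and 0.491 in sO-L1 and 0.721, 0.582, 0.378 and 0.551 in ASO-L1. All 3 overlapped between all groups, and 0 of 3 passed in edgeR (0 at an unadjusted p under 0.05). PSMB9 had 167 reads over 12 libraries, and the 95% interval of its fold against ASO-Ctr ran from 0.448 to 1.37, so changes of that size were not detectable at this depth. PSMB11, the subunit of the thymus, had 3 reads in all.

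**Figure D2:**
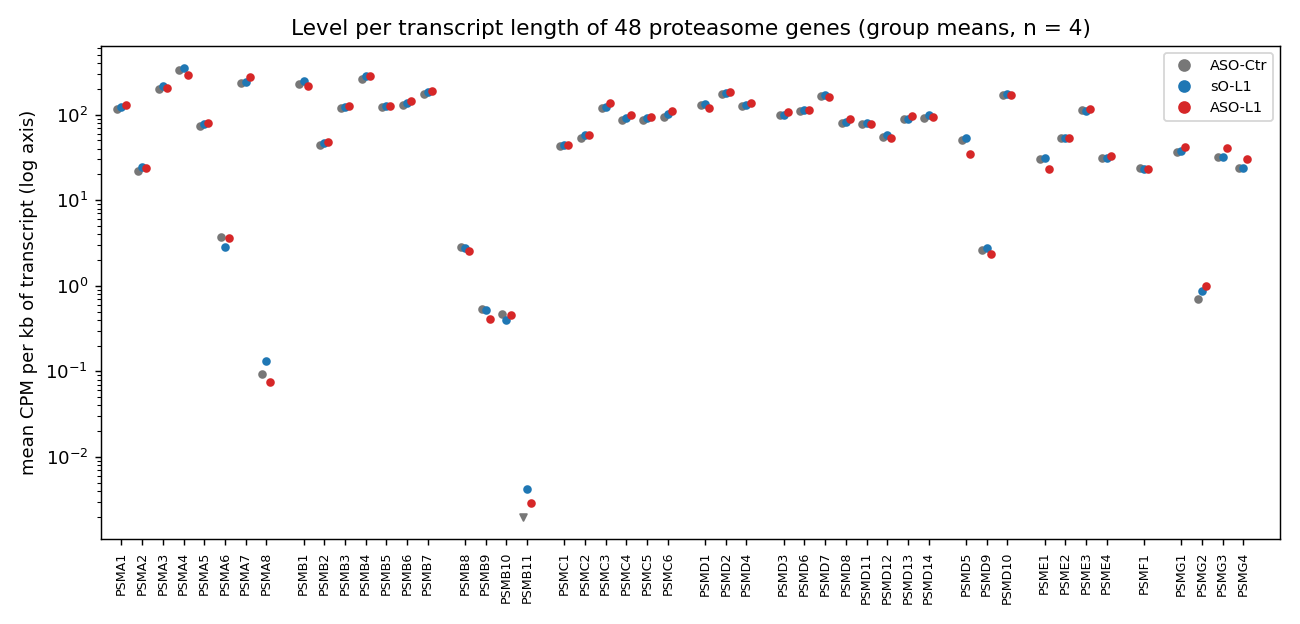
Mean CPM per kilobase of transcript (log axis) of the 48 proteasome genes in ASO-Ctr (grey), sO-L1 (blue) and ASO-L1 (red), each the mean of 4 libraries, with a triangle at the lower edge for a mean of 0 (PSMB11 in ASO-Ctr). The inducible PSMB8, PSMB9 and PSMB10 sit far below PSMB5, PSMB6 and PSMB7 in every group.

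Per kilobase of transcript (median length of basic protein-coding transcripts in GENCODE v29), ASO-Ctr means were 122 ± 7.31 CPM for PSMB5, 131 ± 5.58 for PSMB6 and 174 ± 10.7 for PSMB7 (SD, n = 4). Their inducible partners were at 2.84 ± 0.231, 0.537 ± 0.103 and 0.469 ± 0.114 CPM per kilobase. The highest levels by this measure were PSMA4 at 329.6 ± 14.8, PSMB4 at 263 ± 13.2 and PSMA7 at 235 ± 12.4. In ASO-L1, PSMA4 was at 291 ± 26.7, PSMB4 at 281 ± 10.1 and PSMA7 at 272 ± 5.58. Removal of duplicate reads lowers abundant genes more than scarce ones, so such distances between genes can be understated.

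All 6 ATPase genes had log2 fold changes above 0 against ASO-Ctr in ASO-L1. The same held for all 6 in sO-L1, at a median of 0.07, though none was called there. Between ASO-L1 and sO-L1, 4 of 6 were above 0. Of 6 PSMC genes, PSMC3, PSMC4, PSMC5 and PSMC6 rose against ASO-Ctr and PSMC1 and PSMC2 did not pass, at a median of 0.17 and a median in single replicate numbers of 0.11 to 0.19. PSMC3, PSMC4 and PSMC6 also rose against sO-L1, where the median was 0.10 and replicate 1 was at -0.03. Over all tested genes, 21.2% were called higher against ASO-Ctr and 21.1% against sO-L1. PSMC6, the Rpt4 ATPase, was at 141, 146, 151 and 165 CPM in ASO-Ctr, 159.7, 149, 166 and 165 in sO-L1 and 181, 168, 186 and 169 in ASO-L1. Every ASO-L1 library exceeded every control library, at 1.17-fold ASO-Ctr (95% interval 1.09 to 1.25, adjusted p = 0.00149 by edgeR) and 1.10-fold sO-L1 (adjusted p = 0.0297). Against sO-L1, PSMC4 and PSMC6 each did not pass in 6 of the 16 fits on fewer libraries, or without the replicate block (adjusted p = 0.0623 and 0.0843 by edgeR). PSMC6 did not pass there by limma on the authors' log2 values either (adjusted p = 0.0982), and PSMC3 was lost without replicate 3 of all groups. PSMC3, the Rpt5 ATPase, was at 169, 161, 181 and 182 CPM in ASO-Ctr, 188, 166, 177 and 182 in sO-L1 and 189, 193, 210.4 and 212 in ASO-L1. It was also above all controls, at 1.16-fold ASO-Ctr (95% interval 1.09 to 1.24, adjusted p = 0.00086 by edgeR) and 1.13-fold sO-L1 (adjusted p = 0.00444). PSMC4 and PSMC5 rose by 0.20 and 0.14 on the log2 scale against ASO-Ctr, and PSMC1 and PSMC2 were at 0.01 and 0.11. Without the replicate block PSMC5 had an adjusted p of 0.0517 by edgeR and did not pass, nor did it in 7 of the 16 fits on fewer libraries. Without ASO-L1 replicate 1, PSMC2 passed against ASO-Ctr and PSMC5 against sO-L1.

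PSMD genes moved in both directions. Of 14, PSMD2, PSMD3, PSMD4 and PSMD8 rose against ASO-Ctr, PSMD1 and PSMD5 fell and 8 did not pass, at a median of 0.02. Against sO-L1, PSMD13 rose and PSMD1, PSMD5, PSMD7 and PSMD9 fell, at a median of -0.02. That is 42.9% and 35.7% of the 14, beside 44.3% and 44% of all tested genes called in either direction. Split by place in the particle, the medians against ASO-Ctr were 0.09 for 3 base genes, 0.03 for 8 lid genes and -0.16 for 3 base chaperones. Joined across families, 14 core genes had a median of 0.09 and 17 genes of the 19S particle a median of 0.10. No test was made between these groups.

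**Figure D3:**
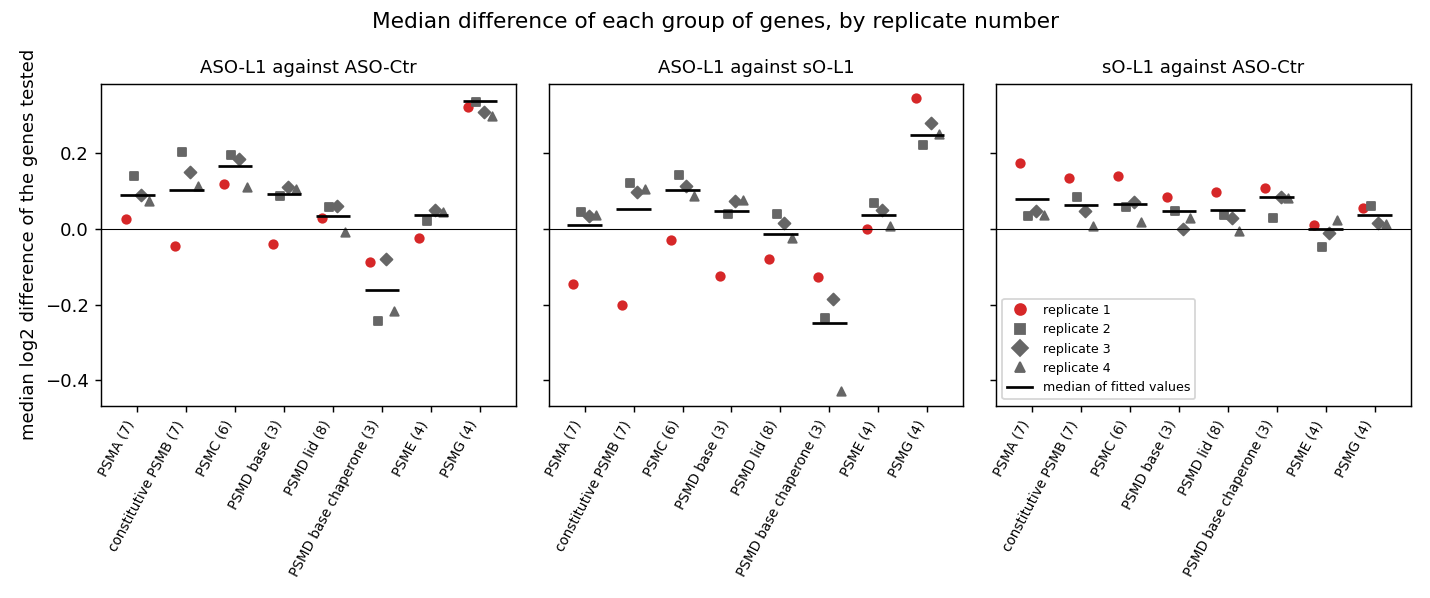
Median log2 difference of the tested genes of each role (number of genes in brackets) within each replicate number (points, replicate 1 in red), with the median of fitted values as a bar, for the 3 comparisons. PSMG genes lie highest in both comparisons with ASO-L1, at fitted medians of 0.34 and 0.25, and replicate 1 lies below the other replicates for constitutive PSMB genes in both of these.

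In the base, PSMD1 and PSMD2 are the large scaffolds and PSMD4 is a ubiquitin receptor. PSMD1 was at 396, 404, 431 and 432 CPM in ASO-Ctr, 431, 401, 427 and 427 in sO-L1 and 339, 378, 390.2 and 407 in ASO-L1. It was lower in ASO-L1 than in the ASO-Ctr library of the same number in 4 of 4, with overlapping groups, and was -0.14 on the log2 scale (SE 0.044, adjusted p = 0.0174 by edgeR) against ASO-Ctr and -0.16 (adjusted p = 0.0074) against sO-L1. Without the replicate block the first of these did not pass (adjusted p = 0.0735), and it was lost in 4 of the 16 fits on fewer libraries. PSMD2 rose by 0.09 against ASO-Ctr, so the scaffolds went in opposite directions. PSMD2 did not pass in 11 of the 16 fits on fewer libraries. PSMD4 was at 175, 159.8, 169 and 165 CPM in ASO-Ctr, 186, 173, 169 and 172 in sO-L1 and 170.3, 179, 183 and 197 in ASO-L1. Its replicate 1 was not higher than that of ASO-Ctr, and the log2 rise of 0.13 (SE 0.049, adjusted p = 0.0494 by edgeR) did not pass in 12 of those 16 fits or with DESeq2.

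In the lid, PSMD3 and PSMD8 rose among 8 genes against ASO-Ctr, beside 21.2% of all tested genes called higher. PSMD8 was at 125, 114, 121 and 127 CPM in ASO-Ctr, 131, 124, 127 and 121 in sO-L1 and 131, 136, 142 and 134 in ASO-L1. ASO-L1 lay above ASO-Ctr in every library, at 1.12-fold (95% interval 1.04 to 1.19, adjusted p = 0.0102 by edgeR), and overlapped sO-L1, at 1.08-fold (adjusted p = 0.0618). The calls of PSMD8 and PSMD3 against ASO-Ctr were lost in 5 and 6 of the 16 fits, and that of PSMD3 also without the replicate block (adjusted p = 0.0591 by edgeR). Without ASO-L1 replicate 1, PSMD13 also rose against ASO-Ctr, and against sO-L1 PSMD3, PSMD4, PSMD8 and PSMD13 rose and PSMD1, PSMD5 and PSMD9 fell. PSMD14, the deubiquitinase that strips ubiquitin from substrates, was at 161, 179, 182 and 195 CPM in ASO-Ctr, 200.1, 185, 197 and 194 in sO-L1 and 179, 178, 190.0 and 181 in ASO-L1. Its groups overlapped and it did not pass, at 0.02 against ASO-Ctr and -0.09 against sO-L1 on the log2 scale (adjusted p = 0.725 and 0.131 by edgeR). PSMD13 was at 136, 136, 144 and 149.8 CPM in ASO-Ctr, 145, 134, 141 and 138 in sO-L1 and 138, 149, 161 and 159.5 in ASO-L1. It rose by 0.12 against sO-L1 (adjusted p = 0.0461 by edgeR) with overlapping groups, a call lost in 11 of 16 fits, while 0.10 against ASO-Ctr did not pass. PSMD3 rose by 0.12 and PSMD7, a partner of PSMD14, was at -0.06 against ASO-Ctr and fell by 0.11 against sO-L1, a call lost in 14 of 16 fits. PSMD6, PSMD11 and PSMD12 were at 0.04, 0.01 and -0.02 and did not pass.

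The base chaperones hold ATPases until the base is built and are absent from the finished particle. PSMD5 had the largest change of any called proteasome gene in both comparisons. It was at 75.3, 77.9, 80.1 and 78.3 CPM in ASO-Ctr, 81.1, 81.0, 84.9 and 82.9 in sO-L1 and 42.0, 52.7, 60.2 and 60.4 in ASO-L1. All 4 ASO-L1 libraries were far below all 8 control libraries, and replicate 1 was lowest. ASO-L1 had 0.688 of the ASO-Ctr level (95% interval 0.623 to 0.760, adjusted p = 7.83e-06 by edgeR) and 0.649 of the sO-L1 level (95% interval 0.588 to 0.716, adjusted p = 1.66e-06). The call held in all 22 alternative fits, with a highest adjusted p of 0.000799 against ASO-Ctr among the leave-out fits. PSMD9 was at 5.09, 5.92, 6.39 and 6.61 CPM in ASO-Ctr, 5.24, 5.89, 6.88 and 7.66 in sO-L1 and 4.79, 5.00, 6.05 and 5.68 in ASO-L1. It overlapped between groups, did not pass against ASO-Ctr (-0.16 on the log2 scale) and fell by 0.25 against sO-L1 (SE 0.093, adjusted p = 0.0389 by edgeR), which 11 of 16 fits on fewer libraries and DESeq2 did not pass. PSMD10, known as the oncoprotein gankyrin, was at 127, 126, 138 and 139.8 CPM in ASO-Ctr, 140.4, 129, 135 and 139.6 in sO-L1 and 138, 129, 134 and 134 in ASO-L1. Its groups overlapped and it did not pass, at 0.01 and -0.02 in the comparisons with ASO-Ctr and sO-L1.

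**Figure D4:**
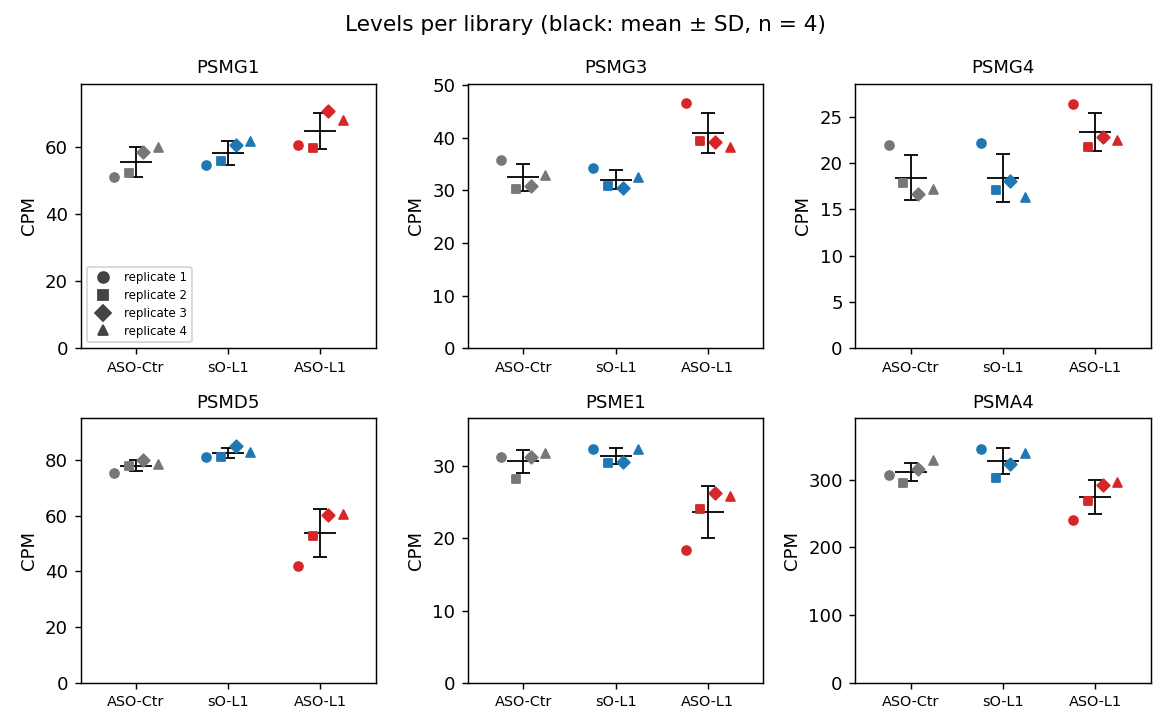
CPM in each library (points, replicates 1 to 4 by shape) with mean ± SD (black, n = 4) for 3 core assembly chaperones (top) and for PSMD5, PSME1 and PSMA4 (bottom), on axes that start at 0. The ASO-L1 libraries lie above all controls for PSMG3 and below all controls for PSMD5 and PSME1, and replicate 1 is the lowest ASO-L1 library in the bottom row.

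PSMG4 and PSMG3 had the largest rises among the proteasome genes called. PSMG1 and PSMG2 form one dimer and PSMG3 and PSMG4 another, and both help to build the alpha ring. PSMG1, PSMG3 and PSMG4 rose against both control oligos and PSMG2 did not pass, at medians of 0.34 against ASO-Ctr and 0.25 against sO-L1. Over all tested genes, 21.2% and 21.1% were called higher in these comparisons. PSMG3 was at 35.8, 30.2, 30.9 and 33.0 CPM in ASO-Ctr, 34.3, 30.8, 30.5 and 32.5 in sO-L1 and 46.6, 39.4, 39.3 and 38.2 in ASO-L1. The lowest ASO-L1 library was above the highest control. PSMG3 was 1.26-fold higher than in ASO-Ctr (95% interval 1.16 to 1.36, adjusted p = 9.78e-05 by edgeR) and 1.27-fold higher than in sO-L1 (adjusted p = 5.42e-05). PSMG4 was at 21.96, 17.8, 16.7 and 17.2 CPM in ASO-Ctr, 22.2, 17.1, 18.1 and 16.3 in sO-L1 and 26.3, 21.7, 22.8 and 22.4 in ASO-L1. Replicate 1 was the highest library in every group, so the groups overlapped, but ASO-L1 was higher in 4 of 4 replicate numbers. Its fold was 1.27 against ASO-Ctr (95% interval 1.16 to 1.39, adjusted p = 0.000302 by edgeR) and 1.27 against sO-L1 (adjusted p = 0.000285).

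PSMG1 was at 51.1, 52.3, 58.7 and 59.9 CPM in ASO-Ctr, 54.7, 55.8, 60.7 and 61.8 in sO-L1 and 60.7, 59.7, 70.7 and 68.1 in ASO-L1. The groups overlapped, with replicates 3 and 4 above 1 and 2 in each, and ASO-L1 was higher in 4 of 4 replicate numbers. PSMG1 was 1.17-fold higher than in ASO-Ctr (95% interval 1.09 to 1.25, adjusted p = 0.000836 by edgeR) and 1.11-fold higher than in sO-L1 (adjusted p = 0.0122), and the latter did not pass without the replicate block (adjusted p = 0.115) or without sO-L1 replicate 3, ASO-L1 replicate 3 or replicate 3 of all groups. PSMG2 had 372 reads over 12 libraries, at 0.685, 0.382, 1.20 and 0.609 CPM in ASO-Ctr, 0.802, 1.19, 0.912 and 0.687 in sO-L1 and 1.19, 1.04, 0.997 and 0.840 in ASO-L1. Its interval against ASO-Ctr ran from 0.949 to 2.24-fold, which includes both no change and a change like that of its partner PSMG1. ASO-Ctr replicate 3 was the highest ASO-Ctr library, and without it PSMG2 passed, at a log2 fold change of 0.90 against 0.55 with all libraries (adjusted p = 0.0322 by edgeR, range over the 16 fits 0.0322 to 0.599). Leaving out the highest control library enlarges the rise by itself, and both of the 2 fits in which PSMG2 passed did so. Against sO-L1 it passed in 0 of the 16 fits, at log2 fold changes of 0.02 to 0.46.

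Among activators, only PSME1 was called against ASO-Ctr and it fell, beside 23.1% of all tested genes called lower. PSME1 and PSME2 form the ring that interferon induces and that opens the core. PSME1 was at 31.2, 28.2, 31.2 and 31.8 CPM in ASO-Ctr, 32.4, 30.4, 30.6 and 32.3 in sO-L1 and 18.4, 24.0, 26.3 and 25.9 in ASO-L1. All ASO-L1 libraries lay below all controls, with replicate 1 lowest. ASO-L1 had 0.773 of the ASO-Ctr level (95% interval 0.687 to 0.871, adjusted p = 0.00134 by edgeR) and 0.751 of the sO-L1 level (adjusted p = 0.000528), and without ASO-L1 replicate 1 the adjusted p values were 0.000241 and 2.46e-05. PSME2 was at 46.1, 42.1, 41.6 and 43.7 CPM in ASO-Ctr, 45.4, 41.2, 41.8 and 44.4 in sO-L1 and 43.4, 42.1, 44.9 and 45.1 in ASO-L1. The partner overlapped in all groups and did not pass (0.02 against ASO-Ctr, 95% interval of the fold 0.940 to 1.09). That interval lies above the interval for PSME1, and the difference between these genes was not tested. PSME3, the nuclear activator, was at 324, 339.6, 356 and 363 CPM in ASO-Ctr, 319, 319, 351 and 353 in sO-L1 and 334, 354, 387 and 378 in ASO-L1. It rose by 0.11 on the log2 scale against sO-L1 (adjusted p = 0.0179 by edgeR), with overlapping groups, and was at 0.07 against ASO-Ctr, which did not pass (adjusted p = 0.124). The call against sO-L1 was lost without the replicate block (adjusted p = 0.148 by edgeR), without the filter on low counts and in 5 of the 16 fits on fewer libraries, and without ASO-L1 replicate 1 PSME3 passed against both controls. PSME4, an activator that acts in the nucleus and in germ cells, was at 215, 228, 226 and 223 CPM in ASO-Ctr, 221, 218, 225 and 231 in sO-L1 and 238, 234, 224 and 229.6 in ASO-L1. PSMF1, the inhibitor known as PI31, was at 85.5, 86.8, 92.5 and 90.6 CPM in ASO-Ctr, 77.0, 88.1, 90.9 and 87.5 in sO-L1 and 76.4, 83.3, 89.3 and 90.3 in ASO-L1. Both overlapped between groups and did not pass, at 0.05 and -0.07 against ASO-Ctr.

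Partners without a PSM symbol were counted from a list of assembly factors, bound enzymes and ubiquitin shuttles. Of 19 tested, 7 rose and 4 fell against ASO-Ctr, and 7 rose and 4 fell against sO-L1, where 44.3% and 44% of all tested genes were called in either direction. POMP, the chaperone that brings the rings of the core together, was at 156, 153, 163 and 168 CPM in ASO-Ctr, 184, 159, 173 and 185 in sO-L1 and 195, 181, 184 and 187 in ASO-L1. It rose by 0.22 against ASO-Ctr (adjusted p = 0.000621 by edgeR), with ASO-L1 above all ASO-Ctr libraries, and 0.09 against sO-L1 did not pass (adjusted p = 0.096). ADRM1, a ubiquitin receptor of the base, was at 82.3, 68.8, 74.4 and 79.8 CPM in ASO-Ctr, 81.6, 74.4, 79.3 and 77.4 in sO-L1 and 104, 87.5, 94.3 and 89.5 in ASO-L1. ASO-L1 was above all controls, with log2 rises of 0.30 and 0.26 against ASO-Ctr and sO-L1 (adjusted p = 7.98e-05 and 0.000266 by edgeR). AKIRIN2, which carries proteasomes into the nucleus, rose by 0.30 against ASO-Ctr.

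Of 14 bound enzymes and shuttles tested, 4 rose and 4 fell against ASO-Ctr, beside 21.2% of all tested genes called higher and 23.1% lower. RAD23B, a shuttle that brings ubiquitinated proteins to the proteasome, was at 417, 433, 457 and 457 CPM in ASO-Ctr, 454, 437, 466 and 479 in sO-L1 and 249.6, 307, 288 and 336 in ASO-L1. It lay below all controls in every ASO-L1 library, at 0.667 of the ASO-Ctr level (95% interval 0.618 to 0.720, adjusted p = 2.01e-07 by edgeR). ZFAND2A, a stress-induced factor that binds the 19S particle, was at 4.92, 4.32, 5.70 and 4.58 CPM in ASO-Ctr, 5.44, 4.65, 4.12 and 4.52 in sO-L1 and 15.1, 9.19, 10.9 and 8.69 in ASO-L1. It was above all controls, at 2.20-fold ASO-Ctr (95% interval 1.84 to 2.62, adjusted p = 1.34e-06 by edgeR). USP14, a deubiquitinase of the base, was at 208, 246, 249 and 253 CPM in ASO-Ctr, 219, 242, 256 and 256 in sO-L1 and 179.7, 201, 207 and 212 in ASO-L1, a log2 difference of -0.26 from ASO-Ctr (adjusted p = 3.62e-05 by edgeR). ASO-L1 and ASO-Ctr overlapped for USP14. FBXO7, an F-box protein that binds PSMF1, was at 75.6, 75.0, 74.1 and 77.4 CPM in ASO-Ctr, 80.6, 76.7, 77.4 and 76.0 in sO-L1 and 101, 89.5, 98.0 and 88.4 in ASO-L1, and rose by 0.32 (adjusted p = 5.14e-05 by edgeR) with ASO-L1 above all controls. The other members called against ASO-Ctr were TXNL1 (0.20) and ZFAND5 (0.21), which rose, and UBE3C (-0.14) and UBQLN2 (-0.19), which fell.

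A list of NFE2L1 pathway, VCP, ubiquitin and interferon genes had 33 tested members, of which 11 rose and 7 fell against ASO-Ctr, and 13 rose and 8 fell against sO-L1, again beside 44.3% and 44% of all tested genes called. NFE2L1 itself was at 367, 314, 301 and 302 CPM in ASO-Ctr, 329, 309, 298 and 292 in sO-L1 and 331, 318, 298 and 301 in ASO-L1. It overlapped between all groups and did not pass, at -0.04 on the log2 scale against ASO-Ctr (95% interval of the fold 0.921 to 1.03, adjusted p = 0.486 by edgeR). NFE2L1 is controlled largely after transcription, which these values do not show. DDI2, the protease that activates NFE2L1, was at 123, 146, 132 and 135 CPM in ASO-Ctr, 111, 130.4, 126 and 129.8 in sO-L1 and 141, 135, 141 and 136 in ASO-L1. It did not pass against ASO-Ctr (0.05) and rose by 0.15 against sO-L1 (adjusted p = 0.0218 by edgeR). NGLY1, which removes sugars from NFE2L1, fell by 0.31, and VCP, the segregase that extracts it from the membrane, fell by 0.17.

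Its relatives NFE2L2 and NFE2L3 moved in opposite directions. NFE2L2, the factor of the oxidative stress response, was at 36.4, 34.6, 37.2 and 37.2 CPM in ASO-Ctr, 42.2, 37.0, 38.6 and 39.0 in sO-L1 and 53.8, 43.8, 43.2 and 41.6 in ASO-L1. It rose by 0.32 against ASO-Ctr, with ASO-L1 above all ASO-Ctr libraries (adjusted p = 0.000441 by edgeR). NFE2L3 was at 166, 162, 174 and 184 CPM in ASO-Ctr, 174, 157, 182 and 181 in sO-L1 and 123, 144, 159 and 168 in ASO-L1, and fell by 0.21 with overlapping groups (adjusted p = 0.00468 by edgeR). The small MAF proteins pair with these factors on DNA. MAFG was at 69.7, 53.2, 57.6 and 64.5 CPM in ASO-Ctr, 71.2, 59.4, 65.7 and 64.0 in sO-L1 and 145, 91.3, 90.9 and 87.2 in ASO-L1. MAFF was at 1.71, 1.17, 1.42 and 1.13 CPM in ASO-Ctr, 1.23, 1.51, 1.21 and 1.51 in sO-L1 and 4.22, 3.49, 3.54 and 2.72 in ASO-L1. Both were above all controls, at 1.67-fold and 2.59-fold ASO-Ctr (adjusted p = 1.57e-06 and 6.79e-06 by edgeR), and replicate 1 of ASO-L1 was highest for each. The third, MAFK, rose by 0.25.

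BTRC, the F-box protein that marks NFE2L1 for degradation in the nucleus, was at 39.8, 49.1, 47.5 and 49.6 CPM in ASO-Ctr, 42.2, 43.8, 53.1 and 48.5 in sO-L1 and 17.4, 25.7, 22.8 and 26.4 in ASO-L1. Every ASO-L1 library was below every control, at 0.496 of the ASO-Ctr level (95% interval 0.445 to 0.552, adjusted p = 3.57e-08 by edgeR). RPS27A, which makes ubiquitin fused to a ribosomal protein and has many pseudogenes, rose by 0.24. In the VCP group NSFL1C (-0.40) and FAF1 (-0.45) fell beside VCP, and FAF2 (0.28) rose. Among interferon-linked genes TAP1 (0.39), TAP2 (0.23) and B2M (0.23) rose, beside inducible subunits that did not pass.

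The authors' deposited table of ASO-L1 against sO-L1 lists 47 proteasome genes. At an adjusted p under 0.05, 8 were higher and 5 lower there, and 32.8% of all its rows passed in either direction. For the 16 genes called here in that comparison, the authors' deposited table gave the same sign in 16, with log2 values within 0.00536 of the edgeR values. Rows named as pseudogenes of proteasome genes numbered 27 and held 228 reads in all, against 2821415 reads of the 48 genes.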

How the data were processed

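Poly(A) RNA of 12 libraries of H9 cells was sequenced, 4 for each of 3 oligos. The deposited counts are raw reads per gene symbol, and duplicate reads had been removed, per the labels. Trim Galore 0.4.0, TopHat2 2.0.13, featureCounts of Subread 1.5.0 and genome build hg19 are named in the submitters' processing notes, while the annotation and the strand setting of the counting are not given in the sources used here. The authors also deposited log2 values of normalized counts, corrected for batch, per the labels. They deposited a table of ASO-L1 against sO-L1 with log2 fold changes, p-values and scores (t and B, not used), per the file headers.

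The deposited counts were normalized by TMM and tested with the two-sided quasi-likelihood F-test of edgeR 4.0.16 in R 4.3.3, after filterByExpr at a minimum count of 10. One model of all 12 libraries held the group and the replicate number. P-values were adjusted by Benjamini-Hochberg over 17264 genes and called under 0.05. Fold intervals are 95% intervals of the model, which cover the spread between these libraries and the counting error and no other error. Reads are not independent molecules. Depth was 22.8 to 55.1 M counts a library, at which 1 read is worth 0.0182 to 0.0438 CPM. The replicate number was kept as a block because the authors' log2 table is described as batch-corrected. In 10549 genes, deviations from the group mean were correlated between libraries of different groups. Same-numbered libraries gave r from 0.216 to 0.725 (12 pairs, each above 0.1), and other pairs a median of -0.223. Deviations within a group sum to 0, so positive same-numbered pairs push the others below 0. That median is therefore no separate contrast. Pairs of libraries with identical values numbered 0.

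The proteasome genes, their roles and the 2 lists of partner genes were chosen with earlier results of these data known. Values in every library are given for the catalytic subunits and their inducible partners, PSMD4, PSMD14, PSMF1, all PSME and PSMG genes and the base chaperones. They are also given for the 2 largest rises and falls among called genes of PSMA, PSMB, PSMC and PSMD in each comparison. From the lists come NFE2L1, NFE2L2, NFE2L3, DDI2, POMP, ADRM1 and up to 4 called genes a list with the smallest adjusted p. Other list genes were named after their values were seen, and some that the lists count are not reported here. Alternatives were RLE size factors, other filters, no replicate block, DESeq2 1.42.0, limma 3.58.1 on the authors' log2 table, and 16 fits without libraries, 22 in all. Scripts were tested on simulated data. Promoter windows are from RefSeq (GRCh38.p14), and their coordinates are not those of hg19.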

Additional observations from a re-analysis of the deposited data

Results flagged for a closer look

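Of 90 groups of 4 libraries examined (30 proteasome genes in 3 groups), 4 held a library far from the other 3, and chance flags about 1 in 20 groups. sO-L1 replicate 2 was low for PSMA1, at 174 CPM where the others were at 187 to 189, and for PSMD1, at 401 CPM where the others were at 427 to 431. ASO-Ctr replicate 2 was low for PSME1, at 28.2 CPM against 31.2 to 31.8. ASO-L1 replicate 1 was high for PSMG3, at 46.6 CPM against 38.2 to 39.4.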

How the results depend on the processing

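Of 92 results (46 genes against ASO-Ctr and against sO-L1), 35 passed the threshold and 17 of these passed in all 22 alternatives. Of the rest, 37 stayed below the threshold in all of them, and 0 turned direction while called.

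On leaving out libraries, proteasome genes called higher against ASO-Ctr ranged from 7 to 23 and lower from 3 to 4, and over all genes from 5797 to 7849. Against sO-L1 they ranged from 3 to 18 and from 4 to 7, and over all genes from 5747 to 7810. For sO-L1 against ASO-Ctr, 0 to 1 proteasome genes and 10 to 410 of all genes were called, against 50. The median log2 fold change of PSMD genes against ASO-Ctr ranged from -0.0153 (without ASO-Ctr replicate 1) to 0.0565 (without replicate 4), so its sign changed.

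Without the replicate block, 4 genes rose against sO-L1, and 5 without a filter on low counts, against 9. Over all tested genes, 16.3% and 9.95% were called higher in these fits, against 21.1%. For sO-L1 against ASO-Ctr, all genes called were 17 without the replicate block, 141 without the filter, 95 with DESeq2 and 137 with limma on the authors' log2 table. The cause was not tested.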
